A study of Bos taurus with 6 samples.

Results

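The miR-424, miR-503, miR-450 and miR-542 cluster is a group of miRNA genes that lie side by side on the X chromosome. Its members were taken by name, as every bovine miRNA called miR-424, miR-503, miR-450 or miR-542, whatever the letter or arm suffix. Of the 1028 miRNAs listed for each library, 7 met this rule, namely bta-miR-424-5p, bta-miR-424-3p, bta-miR-503-5p, bta-miR-503-3p, bta-miR-450a, bta-miR-450b and bta-miR-542-5p. The endings 5p and 3p name the arms of a hairpin precursor, each of which can be cut out as a mature miRNA. The opposite arms of miR-450a, miR-450b and miR-542 were not analysed here.

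The members were followed in cultured granulosa cells, the follicular cells that surround and nourish the oocyte. The cells came from small antral follicles of 3 to 6 mm in cattle ovaries collected at a slaughterhouse. After 24 h of culture at 37 °C, control cells stayed at that temperature for 24 h more, while heat-stressed (HS) cells spent the same 24 h at 42 °C. Small RNA was sequenced in 3 libraries per group, which the submitters describe as biological replicates numbered 1 to 3. Both groups shared the culture medium, with 10% serum depleted of exosomes, and no other treatment separated them. How many cows stand behind a replicate, and their age or breed, are not given in the sources used here, so a p-value measures only the spread between these libraries. The cells grew as an in vitro layer without oocyte or theca, which limits them as a model of the follicle.

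The listed miRNAs had 2076239 to 4590971 reads per library, as recovered from the deposited values, a 2.21-fold range, with control replicate 1 the shallowest. Values are normalised CPM, that is, reads scaled to a common library size with TMM factors (trimmed mean of M-values). A count of 3 reads equals 0.639 to 1.46 normalised CPM, depending on the library, and every member exceeded this floor in every library. bta-miR-202, a miRNA largely restricted to the gonads, had 1309 to 2749 normalised CPM. The 5 granulosa-associated miRNAs examined summed to 146090 to 205657 in control and 166961 to 202196 in HS libraries. Nearly all of that sum was bta-miR-21-5p, a miRNA found in many cell types, at 144234 to 203788. The others were bta-miR-132 (900 to 1083), bta-miR-224 (719 to 852), bta-miR-212 (29.8 to 38.5) and bta-miR-383 (5.53 to 11.1), so the sum says little about cell identity. The 3 red blood cell miRNAs summed to 12.5 to 62.7, nearly all of it bta-miR-486 (12.0 to 60.1). Summed over 2 miRNAs, the endothelial list ran from 228 to 352 without heat and from 131 to 265 with it. The 5 stromal miRNAs summed to 1324 to 2083 and 2008 to 2192 in these groups. Most of the stromal sum was bta-miR-199a-3p (934 to 1680), and 3 stromal miRNAs had fold changes above 0 and 2 below. The 4 leucocyte miRNAs summed to 700 to 843 and 614 to 749, and the 5 epithelial miRNAs to 57.1 to 86.5 and 49.0 to 82.7. No marker in these lists was at 0 in every library. None was called, beside 3.01% of all miRNAs tested, a share at which lists of this size need not hold any. bta-miR-451, bta-miR-144, bta-miR-141 and bta-miR-205 did not pass the filter on low reads and could not be called. The part of these cell types in the values below was not tested. Messenger RNA was not measured in these libraries, so the cells could be checked against miRNAs alone.

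The cluster is transcribed as a long primary RNA from which several hairpins are cut, and in several cell types its miRNAs are raised when cells leave the cell cycle. miR-424-5p and miR-503-5p belong to the extended miR-15/16 family, whose members restrain cyclins and other drivers of the G1 to S transition. In bovine granulosa cells both have been linked to activin signalling, the growth factor pathway that supports follicle growth, through its inhibitor SMAD7. The cell cycle was not measured in these libraries, and roles described in other cell types may not hold in granulosa cells.

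In assembly ARS-UCD2.0, as annotated by RefSeq, 6 hairpin genes of the cluster stand on chromosome X in the order MIR450B, MIR450A-1, MIR450A-2, MIR542, MIR503 and MIR424. The protein-coding genes HPRT1 and PLAC1 flank them. The reads had been mapped to another assembly, UMD3.1, so no positions are given. The only other gene annotated within the cluster was MIR3601, which overlaps MIR542, and bta-miR-3601 had 0 reads in all 6 libraries. bta-miR-450a is the product of both MIR450A-1 and MIR450A-2, and reads from these copies cannot be told apart in the deposited values.

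The cluster was expressed at a low to moderate level. The 7 miRNAs summed to 495, 522 and 513 normalised CPM in the control libraries, given here and below in the order of replicates 1, 2 and 3, and to 625, 463 and 522 in the HS libraries. The HS libraries thus reached both below and above the control libraries. The control mean of the sum was 510.0 ± 13.6 and the HS mean 536.5 ± 81.9 (SD, n = 3 each), or 0.0511% ± 0.00204 and 0.0535% ± 0.00679 of all miRNA reads. The summed level of the control libraries spread little, whereas single members spread more widely. The SD of log2 values between libraries was above the median of all miRNAs tested (0.278 in control, 0.196 in HS) for 6 of 7 members in control and 5 of 7 in HS cells.

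Over all 6 libraries the members fell into 3 tiers. bta-miR-503-5p (121.9 ± 30.2 normalised CPM, SD, n = 6), bta-miR-450b (118.1 ± 27.2), bta-miR-424-5p (108.7 ± 19.5) and bta-miR-542-5p (95.8 ± 14.7) formed the highest tier, ranked 153 to 164 among all 1028 miRNAs. Neighbours in this tier differed by less than their SD. bta-miR-503-3p followed at 40.7 ± 8.51, and its highest library (54.1) lay under the lowest library of bta-miR-542-5p (76.3). bta-miR-450a (21.6 ± 6.61) and bta-miR-424-3p (16.4 ± 2.91) came last and overlapped each other. These SDs run over both groups. Mature miRNAs have nearly the same length and give 1 read per molecule, so the levels were compared without length scaling, although adapter ligation differs between sequences.

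**Figure D1:**
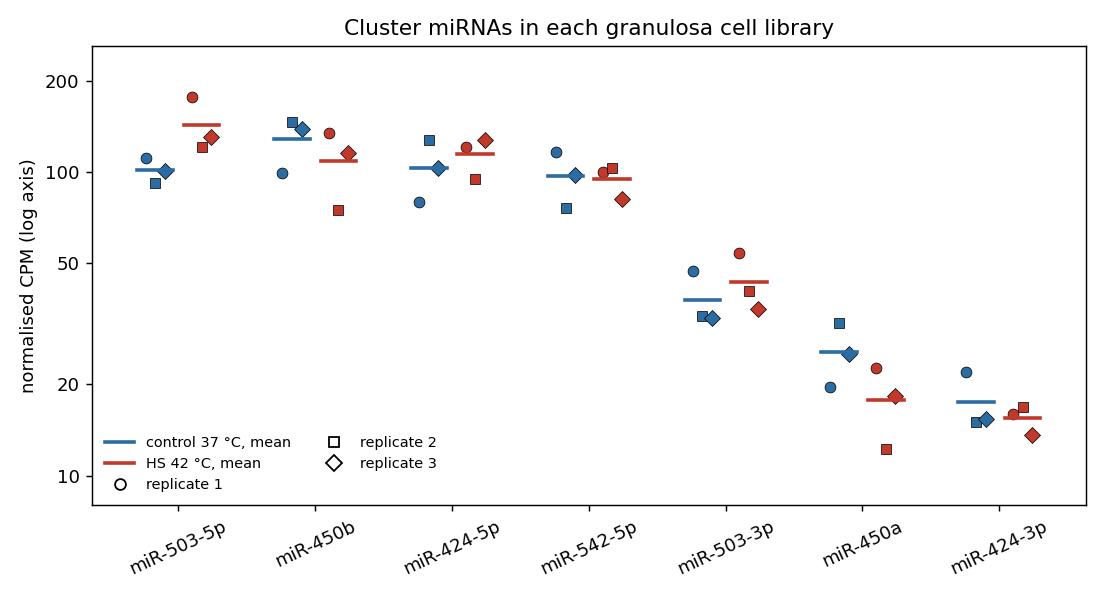
Normalised CPM (log axis) of the 7 cluster miRNAs in each library, with control in blue, HS in red, marker shapes for replicate numbers and bars for group means. Only for miR-503-5p do all HS libraries (121 to 177) lie above all control libraries (91.9 to 111).

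Whether HS changed the cluster was examined with limma across 365 miRNAs that passed a filter on low reads, and all 7 members passed it. None of the 7 combined an adjusted p no higher than 0.2 with a shift of 1 log2 unit or more, a call that 3.01% of the miRNAs tested received. None had an adjusted p under 0.05 either, against 2.19% of all. At an unadjusted p under 0.05 there was 1 of 7, bta-miR-503-5p, by limma, by the edgeR quasi-likelihood test and by DESeq2, while 14.5% of all miRNAs tested passed that level in limma, 7.4% with HS higher. That count was 0 with upper quartile scaling and without control replicate 2, control replicate 3, HS replicate 1 or HS replicate 3. In 1 of 7 members the groups did not overlap, against 20% of all miRNAs tested. Fold changes were above 0 for 3 members and below 0 for 4, with a median of -0.016 on the log2 scale beside -0.0015 over all miRNAs tested. In size the median was 0.18 log2 units, beside 0.2 over all. In cultures of this kind, fewer cells that express a miRNA and less of it per cell cannot be told apart.

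**Figure D2:**
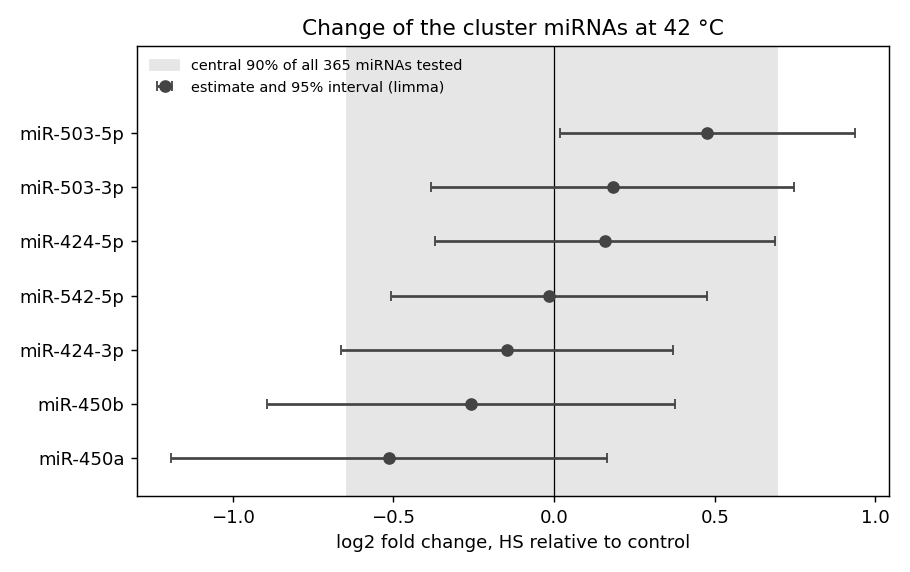
Log2 fold change of HS relative to control (points) with its 95% interval (bars) for each cluster miRNA, over a grey band that holds the central 90% of the 365 miRNAs tested (-0.65 to 0.69). The 7 estimates lie between -0.51 and 0.48, and the interval of miR-503-5p alone stays above 0.

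Of the cell cycle arms, bta-miR-503-5p stood closest to a difference. The control libraries gave 111, 91.9 and 101 normalised CPM, and the HS libraries 177, 121 and 130.3. Every HS library lay above every control library, a separation in this direction that 9.59% of all miRNAs tested also had, and HS replicate 1 stood highest. Means were 101.1 ± 9.48 and 142.7 ± 29.9 (SD, n = 3 each), and the log2 fold change was 0.48 with a 95% interval of 0.018 to 0.94. The limma p was 0.0437 before adjustment and 0.311 after it, so the difference did not pass. Its place by p was 51 of the 365 miRNAs tested. Without HS replicate 1 the log2 fold change was 0.31, and the limma adjusted p was 0.662.

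bta-miR-424-5p, the more abundant arm of the neighbouring hairpin and a seed relative of miR-503-5p, had 79.6, 127 and 103 normalised CPM in control libraries. In HS libraries it had 121, 94.6 and 127. The groups overlapped almost fully, and control replicate 1 was the lowest library. The log2 fold change was 0.16 (95% interval -0.37 to 0.69, limma adjusted p = 0.844), an interval that leaves room for changes of either sign.

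The less abundant arms of these hairpins behaved as follows. bta-miR-503-3p read 47.4, 33.5 and 33.2 normalised CPM without heat and 54.1, 40.5 and 35.3 with it. In both groups replicate 1 was highest. Each HS library lay above the control library of the same number, although the numbers are not known to form pairs. The log2 fold change of bta-miR-503-3p was 0.18 (95% interval -0.38 to 0.75, limma adjusted p = 0.839). It was 0.014 without HS replicate 1 and 0.0005 with upper quartile scaling. bta-miR-424-3p read 22, 15 and 15.3 without heat and 15.9, 16.9 and 13.6 with it, with control replicate 1 apart from the other 5 libraries. These values rest on 45 to 69 reads, for which counting error alone is 0.17 to 0.22 log2 units, and the SD between libraries was 0.29 in control and 0.15 in HS cells. The log2 fold change was -0.15 (95% interval -0.66 to 0.37, limma adjusted p = 0.853).

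The miR-450 hairpins lie at the other end of the cluster. bta-miR-450b read 99.1, 146 and 138 normalised CPM in the control libraries against 135, 75.1 and 115 in those under HS, a log2 fold change of -0.26 (95% interval -0.89 to 0.38, limma adjusted p = 0.795). bta-miR-450a read 19.5, 31.7 and 25.1 against 22.6, 12.2 and 18.3 in the same order, a log2 fold change of -0.51 (95% interval -1.19 to 0.16, limma adjusted p = 0.477). HS replicate 2 was the lowest library and control replicate 2 the highest for both miRNAs, and the groups overlapped. Without HS replicate 2 the log2 fold changes were -0.018 for bta-miR-450b and -0.28 for bta-miR-450a. The wide interval of bta-miR-450a, which had 40 to 146 reads, includes both no change and a fall of 1 log2 unit.

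bta-miR-542-5p, from the middle hairpin, was the most even member between groups in the main fit. Its control libraries gave 117, 76.3 and 97.5 normalised CPM and its HS libraries 99.9, 103 and 81.7. All HS values lay inside the control range. The log2 fold change was -0.016 (95% interval -0.51 to 0.48, limma adjusted p = 0.978). Without control replicate 1 it was 0.13, beside -0.014 for bta-miR-424-5p. With upper quartile scaling it was -0.20, beside -0.026 for bta-miR-424-5p.

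A ratio of reads between members within a library does not depend on how libraries are scaled, and 8 such ratios were examined, of which only the miR-424 arm ratio had been planned. The others were picked after their values were seen and are given as descriptions, with no test. Log2 differences of ratios between groups were taken on log2(value + 1). miR-503-5p reads exceeded miR-450a reads 5.68, 2.90 and 4.01 times in the control libraries, and 7.84, 9.89 and 7.12 times in those under HS. All HS ratios were above all control ratios, with means of 4.19 ± 1.40 and 8.28 ± 1.44 (SD, n = 3 each), and the log2 difference was 0.99. The same separation held for miR-503-5p over miR-450b, at 1.12, 0.629 and 0.726 without heat and 1.31, 1.61 and 1.13 with it, and for miR-503-5p over miR-424-3p, at 5.04 to 6.56 and 7.18 to 11.1. Over miR-424-5p and over miR-542-5p the groups overlapped, with log2 differences of 0.32 and 0.49. miR-503-5p is shared by these ratios, so they are not independent of each other or of its own separation.

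miR-450b reads exceeded miR-450a reads 5.08, 4.61 and 5.52 times in control libraries, against 5.97, 6.13 and 6.29 times under HS. Here the HS libraries were tightly grouped and again lay above all control libraries (log2 difference 0.25). The lowest counts of miR-450a, 40 and 45 reads, carry a counting error of up to 0.23 log2 units in a single library, about the size of this difference. For a difference between means of 3 libraries each, the counting error is smaller. The SD of the log2 ratio between libraries was 0.125 in control and 0.037 under HS.

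The planned comparison of hairpin arms showed no separation of the groups. The miR-424 3p:5p ratio was 0.276, 0.118 and 0.149 without heat and 0.132, 0.178 and 0.107 with it. Control replicate 1 stood above the other 5 libraries. The log2 difference was -0.31 (exact two-sided permutation p = 0.6, where 3 libraries against 3 cannot give less than 0.1), and it was 0.037 without control replicate 1. For miR-503 the 3p:5p ratio was 0.427, 0.364 and 0.330 without heat and 0.306, 0.335 and 0.271 with it. HS replicate 2 overlapped control replicate 3 (log2 difference -0.30). In both hairpins the 5p arm gave most reads in every library.

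**Figure D3:**
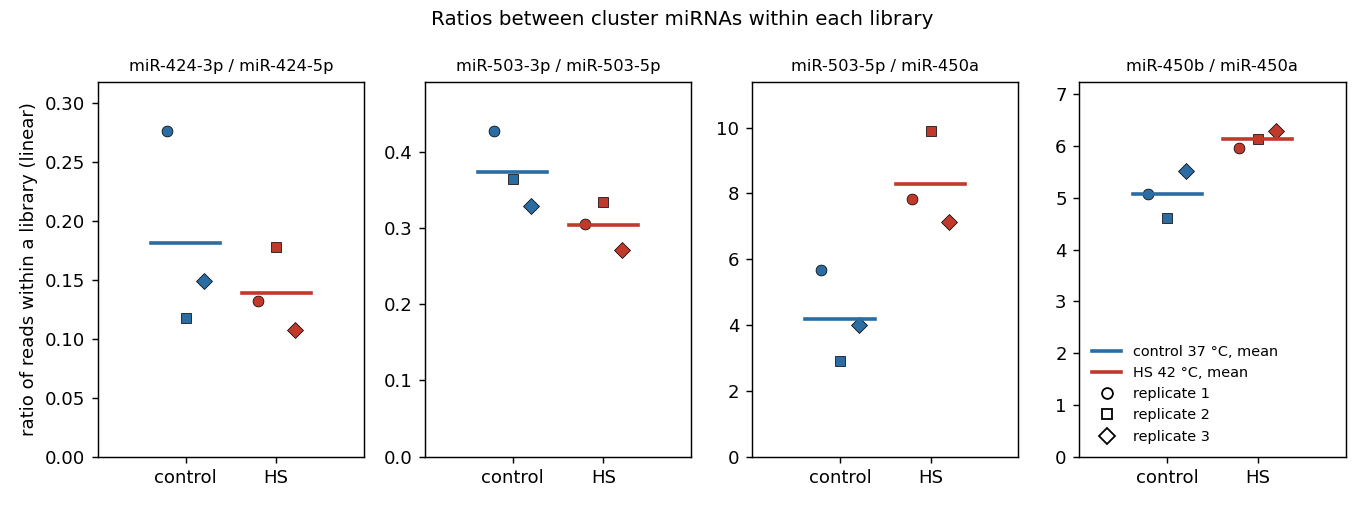
Ratio of reads between cluster miRNAs within each library (linear axes from 0), with control in blue, HS in red, marker shapes for replicate numbers and bars for group means. The arm ratios of miR-424 and miR-503 overlap between groups, and miR-503-5p over miR-450a (2.90 to 5.68 against 7.84, 9.89 and 7.12) and miR-450b over miR-450a do not.

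The members come from a common locus, and across libraries some pairs varied together while others ran opposite. Correlations of log2 values over the 6 libraries are given as descriptions, since the points share libraries, scaling and 2 groups. bta-miR-450a and bta-miR-450b ran most alike of the 21 pairs (Pearson r 0.938, Spearman rho 0.943), followed by bta-miR-424-3p with bta-miR-542-5p (r 0.832, rho 0.943) and the arms of miR-503 (r 0.752, rho 0.714). The arms of miR-424 ran most opposite (r -0.896, rho -0.943). bta-miR-424-3p was highest in control replicate 1, where bta-miR-424-5p was lowest, and lowest in HS replicate 3, where bta-miR-424-5p was highest. Leaving out control replicate 1 gave r -0.730 for this pair, and leaving out the 2 libraries farthest from the median of bta-miR-424-3p gave -0.688. bta-miR-424-5p and bta-miR-542-5p also ran opposite (r -0.875). For bta-miR-424-5p with bta-miR-450a, r was 0.451 over all libraries, 0.601 without control replicate 1 and -0.101 without the 2 libraries farthest from the median of bta-miR-424-5p. For bta-miR-424-5p with bta-miR-450b these values were 0.627, 0.662 and -0.296. As deviations from the group means, over all 6 libraries, the pairs had r 0.897 and 0.865.

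Library depth moved with these patterns. Against log2 total reads, r was -0.934 for bta-miR-424-3p, -0.905 for bta-miR-542-5p and 0.820 for bta-miR-424-5p. For the other 4 members it lay between -0.699 and 0.294. Of all miRNAs tested, 59 (16.2%) had an r beyond 0.8 in size, 37 of them positive and 22 negative, beside 3 of the 7 members. Without control replicate 1, the shallowest library, the values were -0.715 for bta-miR-424-3p, -0.896 for bta-miR-542-5p and 0.482 for bta-miR-424-5p. Without the 2 libraries farthest from the median depth they were -0.502, -0.874 and 0.289. For bta-miR-503-5p, r was -0.159 over all libraries, -0.579 without control replicate 1 and -0.847 without the 2 farthest. The part of depth in these values was not tested.

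**Figure D4:**
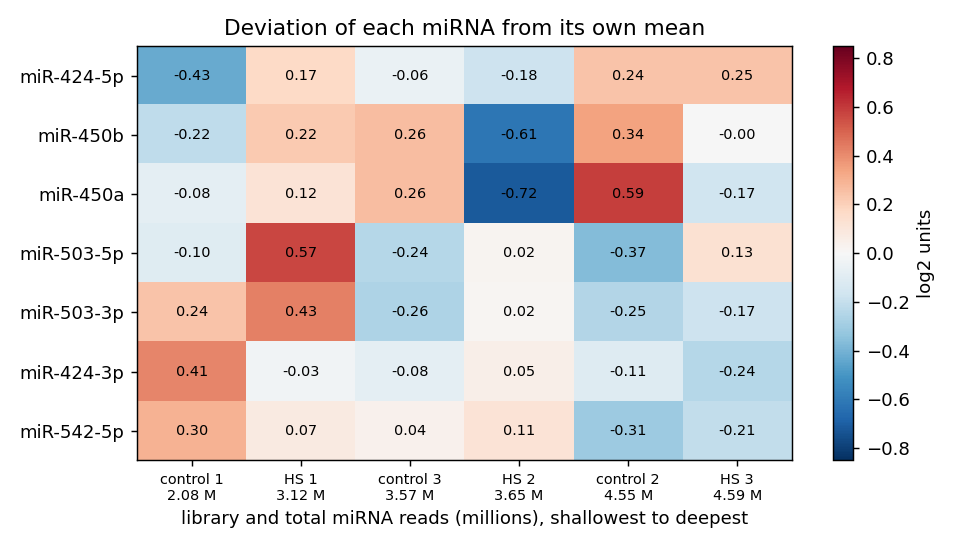
Deviation of log2(value + 1) of each cluster miRNA from its own mean over the 6 libraries (colour and printed values, log2 units), with libraries ordered by their total miRNA reads. miR-424-5p is lowest (-0.43) and miR-424-3p highest (0.41) in control replicate 1, the shallowest library, while miR-450a and miR-450b share their lowest library, HS replicate 2 (-0.72 and -0.61).

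The mean profile of the 7 members varied by only 0.41 log2 units over the libraries. Among the other 358 miRNAs tested, the most similar to it were bta-miR-12015 (r 0.939, rho 0.943), bta-miR-2285o (r 0.847, rho 0.486), bta-miR-378c (r 0.818, rho 0.943), bta-miR-16b (r 0.780, rho 0.657) and bta-miR-505 (r 0.777, rho 0.943), over 6 libraries. The first of these had a mean of only 3.47 normalised CPM and the second 2.61, so their profiles rest on few reads.

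Seed relatives outside the cluster far outnumbered it. The miR-15/16 family members bta-miR-15a, bta-miR-15b, bta-miR-16a, bta-miR-16b, bta-miR-195 and bta-miR-497 all passed the filter. None of these 6 was called and none had an unadjusted limma p under 0.05, beside 3.01% and 14.5% of all miRNAs tested, shares at which a list of 6 need not hold any. There were 3 fold changes above 0 and 3 below, and the median was -0.0077 beside -0.0015 over all. For bta-miR-16b the control mean was 33934 ± 705 normalised CPM and the HS mean 32734 ± 1518 (SD, n = 3 each), with a log2 fold change of -0.053 (95% interval -0.23 to 0.13, limma adjusted p = 0.844). For bta-miR-16a the means were 6256 ± 337 and 7147 ± 388 (log2 fold change 0.19, 95% interval -0.038 to 0.42, limma adjusted p = 0.428). bta-miR-424-5p and bta-miR-503-5p together made up 0.390%, 0.436% and 0.401% of the reads of the 8 family miRNAs in the control libraries, and 0.574%, 0.451% and 0.525% in those under HS. These shares, chosen after the values were seen, did not overlap between groups. Among single miRNAs tested, 20% did not overlap either, 9.59% with HS higher. Most of the gap of 0.107 percentage points lay in miR-503-5p. Its mean share was 0.203% ± 0.0224 in control and 0.286% ± 0.0476 under HS, beside 0.206% ± 0.0451 and 0.230% ± 0.0308 for miR-424-5p. The separation of the shares is therefore not independent of that of miR-503-5p described above.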

How the data were processed

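Each library took 100 ng of RNA and 16 PCR cycles, and its reads carried unique molecular identifiers (UMIs). Adapters were trimmed by the authors with Cutadapt 1.11, after which they collapsed reads with identical UMIs, mapped them with Bowtie2 2.2.2 to the bovine genome (UMD3.1, Ensembl release 72), assigned them to miRBase miRNAs (the study's sources differ on the release) and normalised with TMM in edgeR. The deposited signal is TMM-normalised CPM, with 1 value per miRNA and library. How reads matching several miRNAs were shared is not given in the sources used here.

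All deposited values were whole multiples of a step per library (100% within 0.01 of a read), which gave whole reads and depth. The design had foreseen this unit. limma 3.58.1 (lmFit, eBayes with trend) in R 4.3.3 was run on log2(value + 1), HS against control without covariates, two-sided, on the 365 miRNAs whose recovered reads passed filterByExpr (edgeR 4.0.16, default settings). Benjamini-Hochberg adjustment ran over those 365. Fold changes are on the log2(value + 1) scale, which understates changes of low miRNAs. On simulated reads, the fit recovered 83.7% of 2-fold and 100% of 4-fold changes at an adjusted p of at most 0.2, with no minimum shift required. There 191 of the 354 miRNAs tested had been changed, whereas 7.12% of all miRNAs reached that adjusted p in the real data. The adjustment is milder where many miRNAs change, so these percentages are not the power of the real comparison. Within-library ratios are printed as ratios of recovered reads, while their log2 differences between groups are of log2(value + 1), and the planned one was tested by exact permutation of the libraries, two-sided (scipy 1.17.1, Python 3.11.15).

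Named miRNAs were the members, the miR-15/16 family list, marker lists for gonadal, granulosa, red blood, leucocyte, endothelial, stromal and epithelial cells, 20 miRNAs of 4 other X-linked clusters, and the 5 miRNAs most similar in profile. The members and lists were chosen with earlier results of these data known. The family share, the depth comparison and every ratio other than that of the miR-424 arms were chosen after the values were seen. Alternatives were other scalings, filters, pseudocounts, tests (edgeR quasi-likelihood and DESeq2 1.42.0 on recovered reads, limma-voom), the replicate block and leaving out each library. Depth intervals and floors cover counting error only.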

Additional observations from a re-analysis of the deposited data

How the results depend on the processing

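Under none of 18 alternatives did a member combine an adjusted p no higher than 0.2 with a shift of 1 log2 unit or more, and the smallest adjusted p of a member was 0.235 (bta-miR-503-5p, limma with the replicate block). Of 126 member values under alternatives, 120 kept their direction and 6 changed sign. With upper quartile scaling the median over all miRNAs tested became -0.18 on the log2 scale. There bta-miR-424-5p was at -0.026, which is above that median, no member had an unadjusted p under 0.05, the summed level of the cluster differed by -44.7 normalised CPM against 26.6, and 5 miRNAs of all had an adjusted p under 0.05, against 8. With DESeq2 size factors bta-miR-542-5p was at 0.0058. The DESeq2 Wald test gave 21 miRNAs with an adjusted p under 0.05. The cause of these shifts was not tested.

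When each of the 6 libraries was left out in turn, log2 fold changes ran from -0.24 to 0.023 for bta-miR-424-3p, from -0.014 to 0.32 for bta-miR-424-5p and from -0.18 to 0.13 for bta-miR-542-5p. The first 2 changed sign without control replicate 1, and the third without control replicate 1 or HS replicate 3. Without HS replicate 2, bta-miR-450b was at -0.018 and bta-miR-450a at -0.28, and these 2 ran from -0.44 to -0.018 and from -0.70 to -0.28. bta-miR-503-3p ran from 0.014, without HS replicate 1, to 0.35, without control replicate 1. For bta-miR-503-5p the values ran from 0.31 to 0.59, and its unadjusted p was under 0.05 only without control replicate 1 or HS replicate 2, so the count of members at that level ran from 0 to 1. The miR-424 arm ratio ran from -0.56 to 0.037, and the summed level from -17.6 to 63.3 normalised CPM. Over all miRNAs, the count at an adjusted p under 0.05 ran from 2 to 12, and at the first threshold from 8 to 16 against 11.

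Deviations of same-numbered libraries from their group means correlated across miRNAs at 0.421, -0.117 and 0.616 for replicates 1, 2 and 3. These values do not settle whether the numbers pair the libraries, which the sources used here do not say. The test without pairing had been planned beforehand. The replicate block gave 10 miRNAs at the first threshold and 6 at an adjusted p under 0.05, and it changed no call of a member. Paired within numbers, the log2 ratio of miR-503-5p over miR-450a differed by 0.47, 1.70 and 0.80. Low reads limit bta-miR-424-3p and bta-miR-450a most.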

Other observations

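Other miRNA clusters of the X chromosome give a frame for these values. Of 20 miRNAs from 4 such clusters, 18 passed the filter, and none combined an adjusted p no higher than 0.2 with a shift of 1 log2 unit or more. bta-miR-92a, which is among them, is also made from an autosomal cluster, so its reads cannot be assigned to the X chromosome. The log2 fold changes of the 18 ran from -0.79 to 0.24, with 7 above 0, 11 below 0 and a median of -0.11, beside -0.0015 over all miRNAs tested. In the group from miR-532 to miR-660, bta-miR-660 had a control mean of 1868 ± 86.0 normalised CPM and an HS mean of 1427 ± 107 (SD, n = 3 each), with a log2 fold change of -0.39 and a limma adjusted p of 0.191. In the miR-374, miR-421 and miR-545 group, bta-miR-421 had 647 ± 47.4 and 482 ± 22.4, with a log2 fold change of -0.42 and a limma adjusted p of 0.196. Of the 18, 2 had an unadjusted limma p under 0.05, against 14.5% of all miRNAs tested, and the same 2 had an adjusted p no higher than 0.2, against 7.12% of all. These 2 miRNAs were named after their values were seen.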
